A study of Mus musculus with 2 samples.

Results

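The nuclear oxidative phosphorylation genes were taken as the rows whose symbol starts with Ndufa, Ndufb, Ndufc, Ndufs, Ndufv, Uqcr, Cox4i, Cox5, Cox6, Cox7, Cox8 or Atp5 and that held at least 100 UMIs over both libraries. The name rule met 88 rows and the UMI limit kept 84 of the 33456 genes in the files. Of the 4 rows left out, Cox6a2 had 15 UMIs, Cox7b2 had 8, and Cox8b and Cox8c had 0. The lowest member kept was Cox7a1 with 201 UMIs. The 84 members comprise 36 subunits of complex I, 8 of complex III, 15 of complex IV and 15 of complex V. They also take in the 7 complex I assembly factors Ndufaf1 to Ndufaf7, the supercomplex factor Cox7a2l, and Atp5s and Atp5sl, which carry the name without being subunits. Ndufa4 and Ndufa4l2, named after complex I, are counted here with complex IV.

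Yolk sac cells of B6 mice made up 1 Baf155 CKO library and 1 WT library, read from the 5′ end on the 10x Genomics platform. In each genotype, yolk sacs of as many E9.5 as E10.5 embryos were pooled, digested with collagenase, frozen, thawed and sorted for live Ter119-negative cells. Smarcc1 encodes Baf155, which belongs to the core of BAF, a SWI/SNF-type complex that moves nucleosomes. The labels call the material nuclei although the protocol describes live cells. How many embryos were pooled, which Cre driver and deleted exon the CKO carries, and which stage a cell came from is not given in the labels. With 1 pooled library per genotype there was no replicate and no test. The 95% intervals below cover counting error only, and a difference of genotype cannot be told apart from one of embryos, sort or library.

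Oxidative phosphorylation passes electrons from NADH and succinate along the inner mitochondrial membrane to oxygen. Complexes I, III and IV pump protons, and complex V, the ATP synthase, lets them back to make ATP. Most subunits are encoded in the nucleus and a small core in mitochondrial DNA, so the complexes need both sets of transcripts. In the yolk sac, visceral endoderm takes up and processes maternal nutrients, and red cells build haem in their mitochondria before they mature.

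Promoter windows are shown for 5 members described below, chosen because they hold a motif of a factor known for nuclear respiratory genes. RefSeq promoters (GRCm38.p6) were found for 71 of the 84 members, and the 250 bases before each start were searched on both strands. Those not found include Ndufs1, Cox4i2, Ndufaf6, Uqcrc2, Ndufa4l2, Cox4i1, Uqcrq, Uqcrb, Cox6c, Ndufb9, Ndufa2 and Atp5a1. Capitals mark the site of nuclear respiratory factor 1 (GCGC, any base, then TGCGC) in Atp5g2, Ndufaf4 and Atp5h, and CCGGAAG, an ETS site, in Ndufs3 and Atp5l. The sequences run 5′ to 3′ along the gene, and in Atp5h and Atp5l the motif lies on the opposite strand.
Atp5g2, chr15:102671048-102671127, minus strand, capitals ending 33 bases before the start: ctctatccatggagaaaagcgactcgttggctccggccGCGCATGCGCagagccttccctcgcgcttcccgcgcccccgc
Atp5l, chr9:44920911-44920990, minus strand, capitals ending 206 bases before the start: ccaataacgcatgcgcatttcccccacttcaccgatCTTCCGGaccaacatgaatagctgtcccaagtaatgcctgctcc
Ndufs3, chr2:90904722-90904801, minus strand, capitals ending 21 bases before the start: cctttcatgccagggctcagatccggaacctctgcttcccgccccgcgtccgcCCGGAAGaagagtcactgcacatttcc
Ndufaf4, chr4:24897935-24898014, plus strand, capitals ending 104 bases before the start: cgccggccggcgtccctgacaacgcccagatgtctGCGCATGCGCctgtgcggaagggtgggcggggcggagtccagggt
Atp5h, chr11:115420016-115420095, minus strand, capitals ending 132 bases before the start: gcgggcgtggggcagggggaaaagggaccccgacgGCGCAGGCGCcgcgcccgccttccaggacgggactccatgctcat
The nuclear respiratory factor 1 site was present before 12 of 71 members (16.9%), against 4.23% of all 27025 genes with a promoter in the table. It was found before 6 of 32 complex I genes, 0 of 5 complex III genes, 1 of 11 complex IV genes and 4 of 14 complex V genes. With A as its free base, which makes it a palindrome and a part of the same count, it was present before 5 members (7.04%), against 0.877% of all genes. CCGGAAG was present before 12 members (16.9%), against 7.83% of all genes. AAGATGGC, a YY1 site, was present before 2 members (2.82%), against 1.83%, and ACGTG, the core that hypoxia-inducible factors bind, before 15 members (21.1%), against 18.5%. TATAAA was present before 5 members (7.04%), against 14.3%, and CCAAT before 31 members (43.7%), against 37.5%. Cox6b2, Cox7a2l, Ndufa12, Ndufaf5 and Ndufb2, also described below, held neither of the 2 marked motifs nor the YY1 site in this window. A match describes these letters and not a bound site. The RefSeq starts of Atp5g2, Ndufs3 and Atp5h lie inside the spans that GENCODE gives these genes. For Atp5g2 and Ndufs3 the printed window lies inside the span as well.

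The CKO library held 27314411 UMIs in 865 barcodes and the WT library 24538853 UMIs in 815 barcodes, with 1 barcode shared. After filtering, 841 CKO and 784 WT cells remained. Cells were gated on marker genes, and 767 CKO and 697 WT cells fell into 1 gate. Klf1-negative progenitors (75 CKO and 127 WT cells), erythroid cells (250 and 154), endothelium (48 and 52) and stroma (281 and 248) had at least 20 cells in each library and were compared. Endoderm (1 CKO cell, 26 WT cells), macrophages (13 CKO, 46 WT), megakaryocytes (60 CKO, 17 WT) and cells with both progenitor and endothelial markers (39 CKO, 15 WT) had enough cells in 1 library. Smarcc1 stood at 46.9 CPM in CKO progenitors against 131 CPM in WT progenitors, at 7.31 against 55.8 CPM in erythroid cells, at 8.81 against 81.5 CPM in endothelium and at 31.7 CPM (216 UMIs) in CKO stroma against 582 UMIs in WT stroma, a ratio of 0.317. CKO cells of each type still held some of the transcript. The erythroid gate held cells although the sort was for Ter119-negative ones, and globins made up 27.2% of its CKO UMIs and 31.6% of its WT UMIs. CKO endothelium was sequenced more deeply, at a median of 23455 UMIs per cell against 13184.5 in WT endothelium, and its gate also held megakaryocyte list transcripts at 583.3 CPM against 225.3 CPM in WT.

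Summed over all 84 members, the transcripts stood lower in the CKO library in each of the 4 compared types. Klf1-negative progenitors had 30685 CPM in the CKO library and 33134 CPM in the WT library, a ratio of 0.926 (0.919 to 0.933). Endothelium had 29852 CPM in the CKO library and 32429 CPM in WT, a ratio of 0.921 (0.906 to 0.935). Stroma had 28135 CPM in the CKO library and 30352 CPM in WT, a ratio of 0.927 (0.921 to 0.933). All 3 intervals lie below 1, and they overlap one another. Erythroid cells had 22482 CPM in the CKO library and 24551 CPM in WT, a ratio of 0.916 (0.910 to 0.922). Because globins take up much of the erythroid UMIs, the levels were also set against the other UMIs alone, which gave 30865 CPM in CKO and 35893 CPM in WT, a ratio of 0.860 (0.854 to 0.866). The other erythroid ratios of CKO over WT in this report keep globin UMIs in the total unless stated. Leaving them out lowers each of these ratios, since the globin share was larger in WT. In the types with few cells in 1 library the sum stood at 30328 CPM in CKO megakaryocytes against 34484 CPM in WT, at 30840 against 31245 CPM in macrophages, and at 30216 against 30258 CPM in cells with both progenitor and endothelial markers.

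Member by member, the ratio of CKO over WT was below 1 for 64 of 83 measured members in progenitors, 57 of 81 in erythroid cells, 57 of 81 in endothelium and 66 of 83 in stroma. Over all measured genes the share below 1 was 51.3%, 33.8%, 56.0% and 51.5% in these types. The median log2 ratio of the members was -0.12 in progenitors, where that of all genes was -0.02. In erythroid cells it was -0.10 beside 0.20 for all genes, in endothelium -0.15 beside -0.10, and in stroma -0.12 beside -0.02. The members' median lay below that of all genes in all 4 types, and nearest to it in endothelium.

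**Figure D1:**
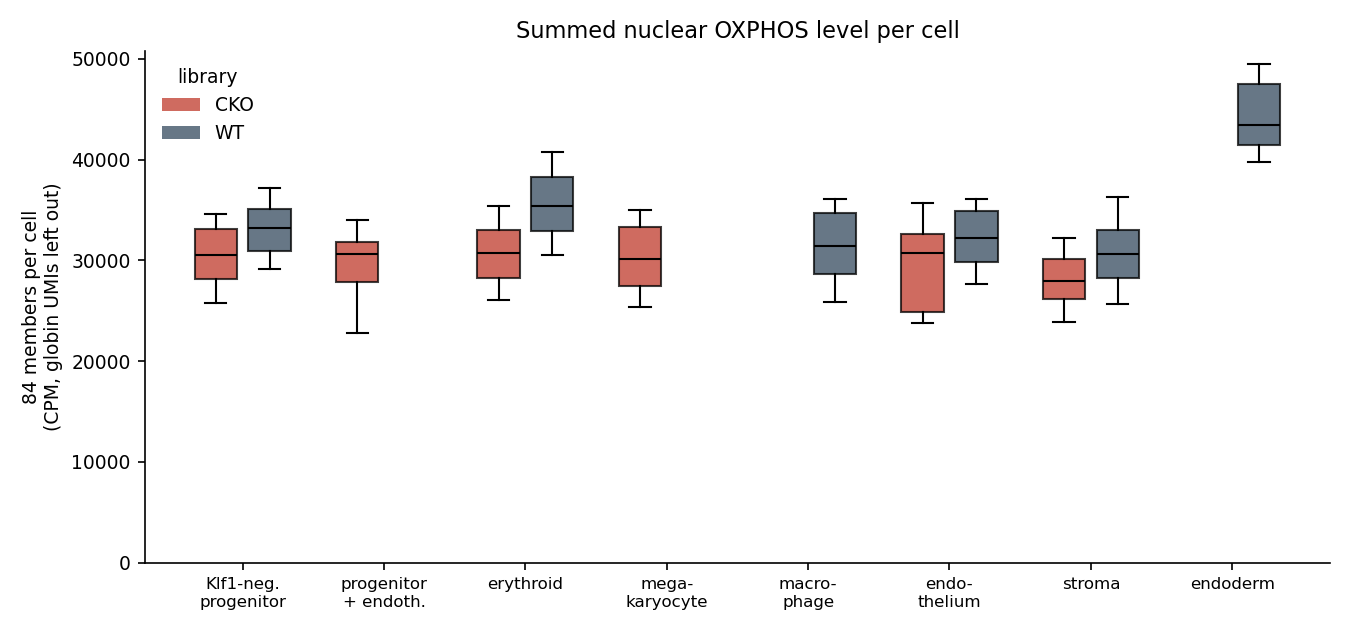
Summed level of the 84 members in each cell, in CPM with globin UMIs left out of the total, by gated type; boxes show the quartiles and median, whiskers the outermost cells within the 10th and 90th percentiles, CKO left of WT. Types with fewer than 20 cells in a library have no box there. CKO medians lie below WT medians in the 4 types with both boxes while the whiskers overlap, and WT endoderm stands highest.

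Single cells showed the same order with wide overlap. The per-cell median without globin UMIs was 30491 CPM in CKO progenitors and 33255 CPM in WT progenitors. It was 30694 CPM in CKO erythroid cells and 35366 CPM in WT ones, 30713 and 32227 CPM in endothelium, and 27953 and 30585 CPM in stroma. The 10th to 90th percentiles of the cells ran over 23845 to 32229 CPM in CKO stroma and 25637 to 36393 CPM in WT stroma. These ranges overlapped over most of their width.

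The 4 complexes did not move by the same amount, and complex V stood nearest to WT in progenitors, erythroid cells and endothelium. In stroma its interval overlapped that of complex III (0.952, 0.933 to 0.971). Complex I, which takes electrons from NADH, summed to 8677 CPM in CKO and 9733 CPM in WT progenitors (ratio 0.892, 0.879 to 0.905), and to 8908 CPM in CKO and 9795 CPM in WT stroma (0.909, 0.899 to 0.920). Its ratio was 0.877 (0.852 to 0.903) in endothelium and 0.917 (0.906 to 0.929) in erythroid cells. The ratio was below 1 for 30 of 36 complex I subunits in progenitors, 26 in erythroid cells, 29 in endothelium and 31 in stroma. Complex III, which hands electrons to cytochrome c, had ratios of 0.932 in progenitors, 0.862 in erythroid cells, 0.896 in endothelium and 0.952 in stroma. Complex IV, cytochrome c oxidase, had 9024 CPM in CKO and 10083 CPM in WT endothelium, and ratios of 0.915, 0.883, 0.895 and 0.908 in the same order. Complex V had ratios of 0.968 (0.954 to 0.983), 0.966 (0.953 to 0.979), 0.998 (0.968 to 1.03) and 0.955 (0.943 to 0.966). With globin UMIs left out, the erythroid ratios were 0.861 for complex I, 0.81 for complex III, 0.829 for complex IV and 0.907 for complex V. In all 4 types the interval of complex V lay above that of complex I. Part of this came from 2 genes described below, Atp5g2 and Atp5l, without which the complex V ratios were 0.949, 0.948, 0.978 and 0.935, the last below that of complex III. The complex I assembly factors had the lowest ratios in progenitors (0.811, 0.752 to 0.875), endothelium (0.775, 0.645 to 0.933) and stroma (0.789, 0.731 to 0.852).

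**Figure D2:**
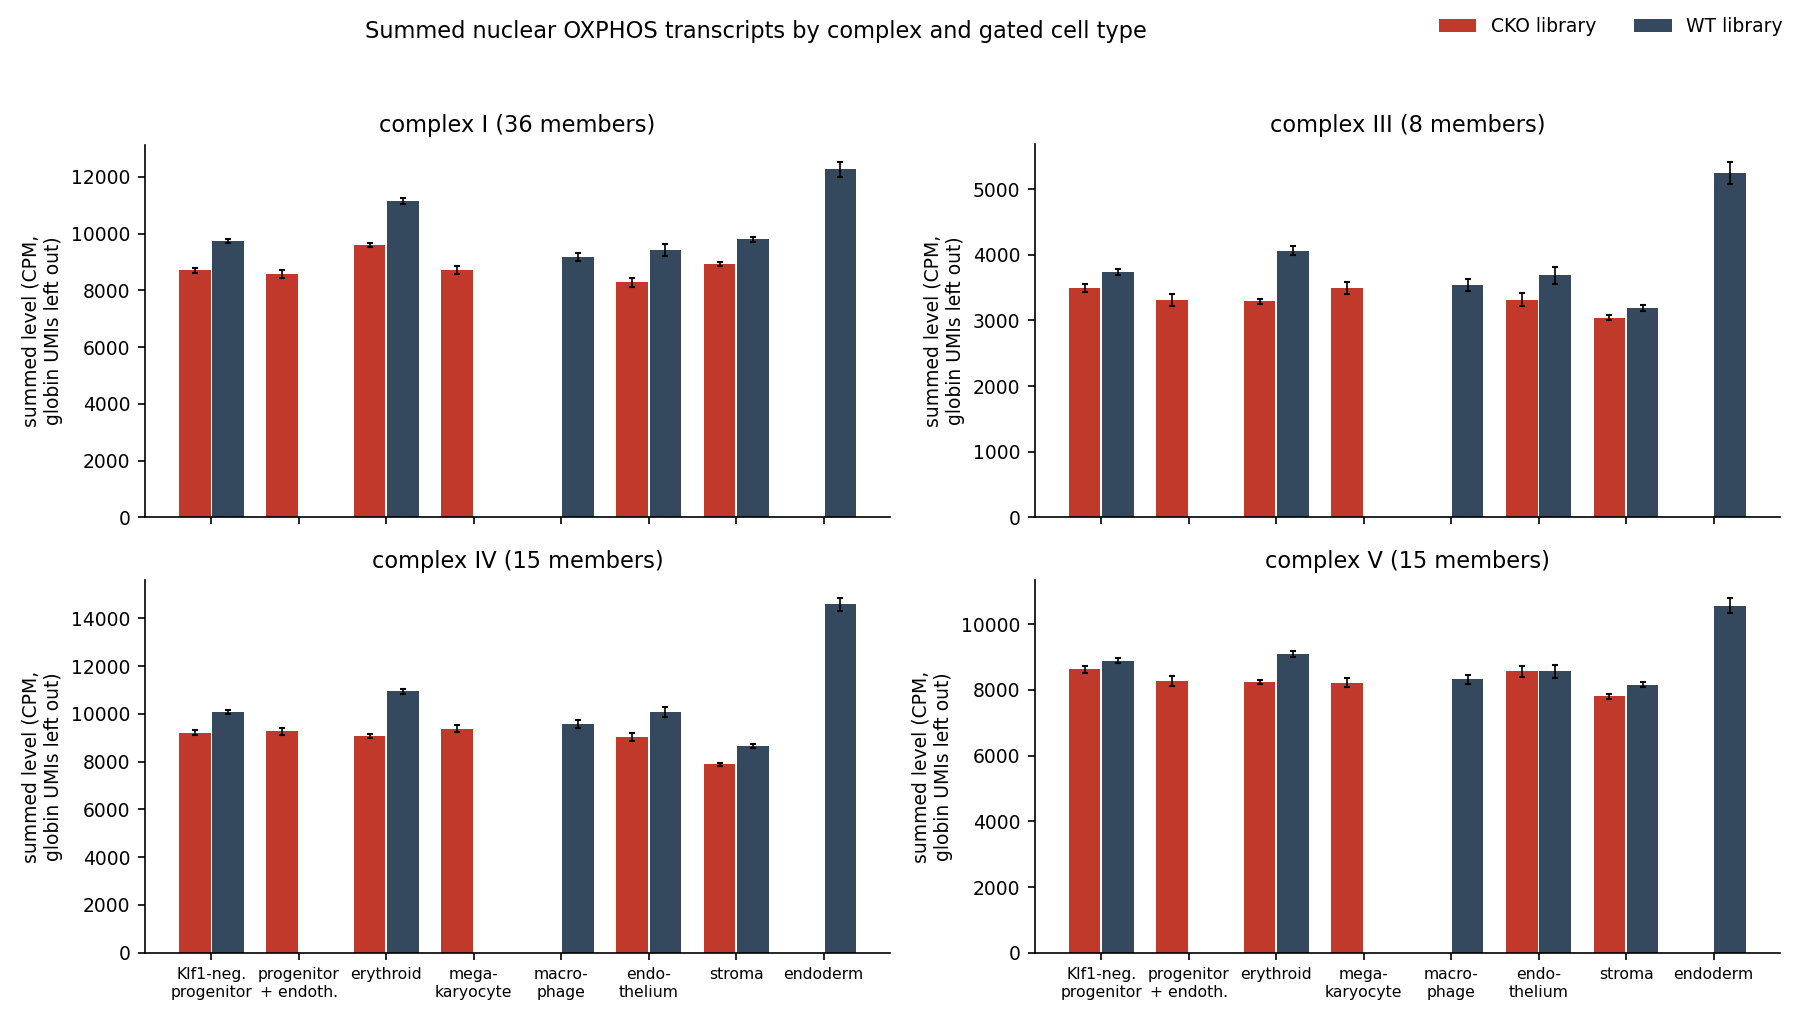
Summed level of the subunits of complexes I, III, IV and V in CPM, with globin UMIs left out of the total, by gated type, CKO bars left of WT bars and exact Poisson 95% intervals that cover counting error only. Types with fewer than 20 cells in a library have no bar there. WT endoderm is highest in all 4 panels, and the CKO and WT bars of endothelium coincide for complex V.

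Within each library, the gated types were set against its own progenitors. WT endoderm summed to 43248 CPM against 33134 CPM in WT progenitors, a ratio of 1.31. By complex it was 1.26 for complex I, 1.40 for complex III, 1.45 for complex IV and 1.19 for complex V. Of 83 members, 19 were at least 1.5-fold higher in endoderm and 7 at least 1.5-fold lower, where 26.8% and 40.8% of all genes were. Endoderm also had the highest share of mitochondrial UMIs among the WT gates (median 5.04% per cell), and its mitochondrially encoded subunits stood at 46871 CPM. Members above 2-fold there were Cox7a1 (9.93), Ndufb6 (2.10), Ndufb11 (2.08), Ndufa1 (2.05), Cox7a2 (2.01) and Atp5o (2.07), which joins the catalytic head of the synthase to its outer stalk. Among the lower ones, the assembly factor Ndufaf1 stood at 0.358 of its progenitor level, on 6 UMIs in endoderm, and Cox4i2 had 0 UMIs there.

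Stroma was below progenitors by nearly the same amount in both libraries, at 0.917 in CKO and 0.916 in WT. The difference lay in complexes III (0.871 and 0.853), IV (0.855 and 0.861) and V (0.905 and 0.918), while complex I stood at 1.03 in CKO and 1.01 in WT and the assembly factors at 0.577 and 0.593. At least 1.5-fold in both libraries, 3 of 84 members were higher in stroma (27.8% of all genes) and 8 were lower (19.4% of all genes). The higher ones were Ndufa4l2, Ndufb11 (1.56 in CKO and 1.87 in WT) and Ndufv3 (1.80 and 1.58), accessory subunits of complex I in the last 2 cases. Among the lower ones, Cox5a, which contacts the catalytic core of complex IV, stood at 0.476 in CKO and 0.590 in WT.

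Endothelium was close to progenitors, at 0.973 in CKO and 0.979 in WT. Only Atp5h, the d subunit of the ATP synthase stalk, was at least 1.5-fold higher in both libraries (1.52 and 1.70; 18.1% of all genes were), and 5 of 83 members were lower (12.4% of all genes). Those 5 were Atp5g1, Cox4i2, Ndufaf4, Ndufaf5 and Ndufaf6. Atp5h has a copy, Gm10250, that is 98.97% identical over 485 bases, so its reads may be split between the rows.

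Erythroid cells stood at 0.733 of progenitors in CKO and 0.741 in WT with all UMIs counted, and at 1.00 and 1.08 without globins, so the direction depends on that choice. Without globins, 4 of 83 members were at least 1.5-fold higher in both libraries (9.33% of all genes) and 5 lower (30.6%). With all UMIs 1 was higher (5.57%) and 20 were lower (53.1%). The 4 higher members were Cox6b2, the testis-type isoform of a complex IV subunit (9.83 in CKO and 15.4 in WT), the complex I core subunit Ndufs3 (3.40 and 2.16), the accessory subunit Ndufa6 (1.94 and 1.88) and the NADH-binding subunit Ndufv1 (1.71 and 1.66). Ndufs3 and Ndufv1 were the 2 core subunits of complex I among them.

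Between genotypes, few members passed 1.5-fold. In progenitors 4 of 83 members were at least 1.5-fold higher in CKO cells, where 13.9% of all genes were, and 1 was lower, where 10.6% of all genes were. In erythroid cells 4 of 81 were higher (23.8% of all genes) and 2 lower (7.23%). In endothelium 4 of 81 were higher (13.1%) and 5 lower (19.7%), and in stroma 5 of 83 were higher (13.7%) and 2 lower (11.7%). These shares were below the background in each direction and type, where the background takes in genes down to 20 UMIs.

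**Figure D3:**
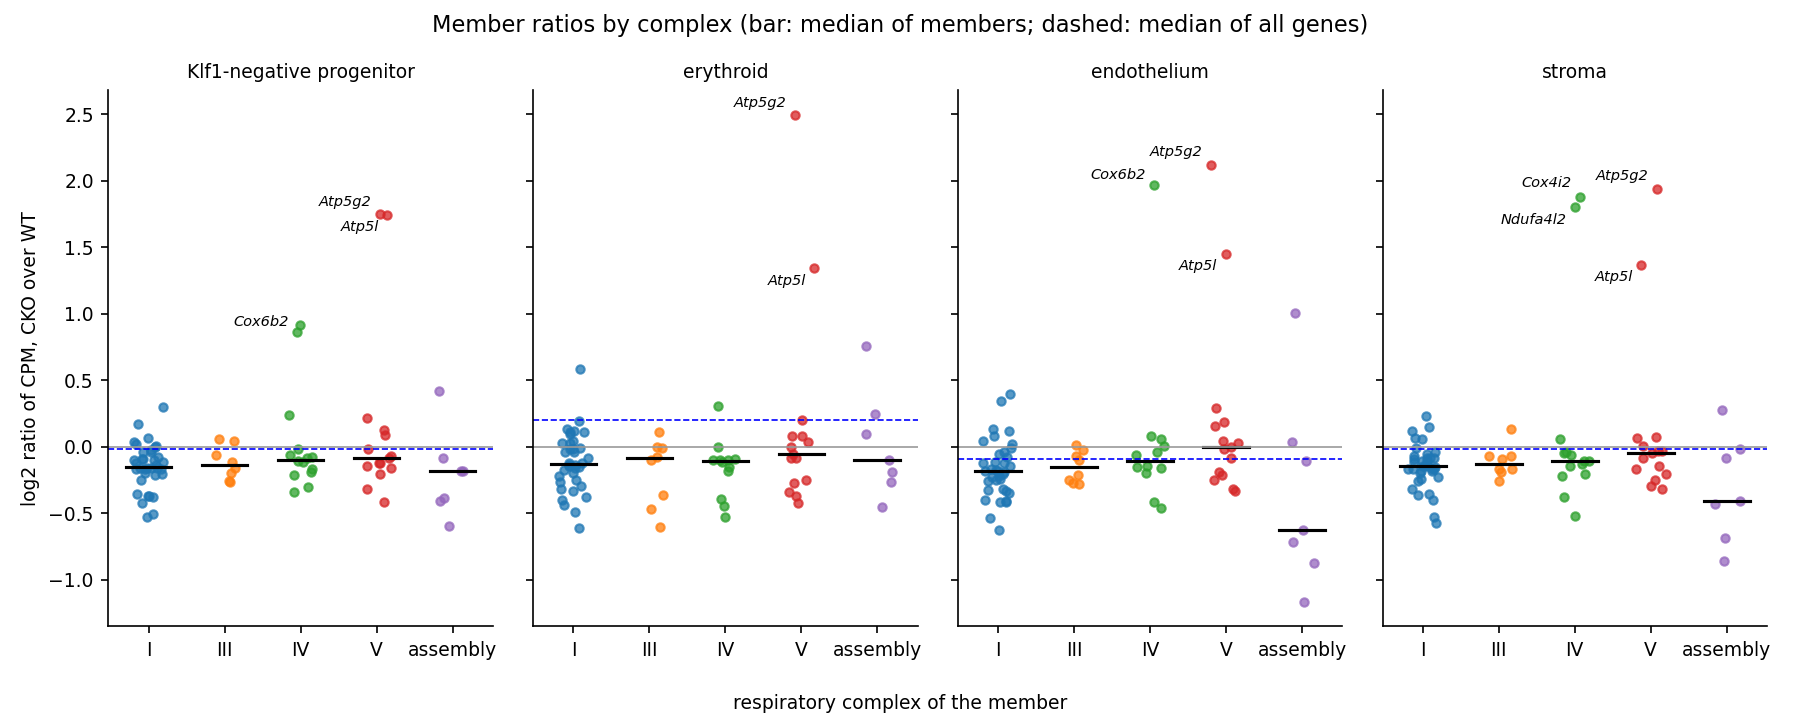
Log2 ratio of CPM, CKO over WT, of each measured subunit and complex I assembly factor in the 4 compared types, with the median of each complex as a black bar, 0 as a grey line and the median of all genes as a dashed line. Most points lie between -0.5 and 0.3, and Atp5g2 and Atp5l stand above 1 in every panel.

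Atp5g2 and Atp5l were at least 2-fold higher in CKO cells of all 4 types, which held for 2 of 81 members measured in all of them and for 0.448% of all genes; none of the 81 was 2-fold lower in all 4, where 0.278% of all genes were. Atp5g2 (chromosome 15, 102662864 to 102672352, minus strand, GRCm38) encodes 1 of 3 precursors of the same c subunit, the proton-carrying ring of the ATP synthase. It stood at 115 CPM (369 UMIs) in CKO progenitors against 34.3 CPM (180 UMIs) in WT progenitors, a ratio of 3.36 (2.81 to 4.04). It stood at 78.2 CPM (727 UMIs) in CKO against 13.9 CPM (76 UMIs) in WT erythroid cells, a ratio of 5.64 (4.45 to 7.24). It stood at 125.0 CPM (156 UMIs) against 28.8 CPM (24 UMIs) in endothelium, a ratio of 4.35 (2.82 to 6.99), and at 126 CPM (859 UMIs) against 32.8 CPM (191 UMIs) in stroma, a ratio of 3.84 (3.28 to 4.51). No CKO interval reached a WT interval.

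Atp5l (chromosome 9, 44912557 to 44920742, minus strand), the g subunit of the membrane part that holds synthase dimers together, stood at 120 CPM (384 UMIs) in CKO against 35.8 CPM (188 UMIs) in WT progenitors. It stood at 81.0 against 31.9 CPM in erythroid cells, at 111 against 40.8 CPM in endothelium and at 96.7 against 37.5 CPM in stroma. The ratios were 3.35 in progenitors, 2.54 in erythroid cells, 2.73 in endothelium and 2.58 in stroma. The types with few cells in 1 library had the same order, with Atp5g2 ratios of 3.94 in megakaryocytes and 4.75 in macrophages and Atp5l ratios of 2.85 and 3.69.

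Split by Smarcc1 count or by sex, each set of CKO cells held both genes above WT in each compared type. The CKO levels were not always alike between the sexes. In erythroid cells Atp5l stood at 87.0 CPM in Xist-only and 70.1 CPM in Y-only CKO cells. In endothelium Atp5g2 stood at 105.6 CPM in Xist-only and 139 CPM in Y-only CKO cells. In CKO progenitors Atp5g2 stood at 119 CPM in the 31 cells without a Smarcc1 UMI and at 114 CPM in the 44 cells with one, beside 34.3 CPM in WT. Atp5l stood at 127 CPM without and 116.5 CPM with a Smarcc1 UMI, beside 35.8 CPM in WT. In stroma, Atp5g2 stood at 133 CPM in CKO cells with Xist and no Y-linked transcripts against 31.5 CPM in WT cells of that kind, and at 117 against 33.3 CPM in cells with Y-linked transcripts and no Xist. In progenitors the levels were thus alike in CKO cells with a counted Smarcc1 UMI and in those without. A cell without a Smarcc1 UMI need not lack the transcript. Among WT cells, 3 of 127 progenitors, 37 of 154 erythroid, 20 of 52 endothelial and 46 of 248 stromal cells also had none. Whether the levels of Atp5g2 and Atp5l depend on Smarcc1 was not tested.

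Both genes have near-identical copies, which bears on what the rows count. Gm10175 matches the Atp5g2 transcript at 100% over 645 bases, and its own ratio was 1.99 in progenitors, 2.39 in erythroid cells, 2.29 in endothelium and 1.77 in stroma. The sum of the pair had ratios of 2.60, 3.69, 3.24 and 2.61. Gm10221 matches Atp5l at 100% over 309 bases, and its ratio was 0.961, 0.786, 0.895 and 0.791. The sum of that pair had ratios of 1.58, 1.37, 1.49 and 1.32. The values of Atp5g2 and Atp5l alone are therefore uncertain by the way reads were divided, and with the copies added both still stood above 1 in each type. Transcripts of all 3 c subunit genes together had ratios of 0.891, 0.891, 0.994 and 0.933, with Atp5g1 at 0.802, 0.827, 0.943 and 0.865 and Atp5g3 at 0.902, 0.789, 0.839 and 0.815. The summed c subunit transcripts were thus not higher in CKO cells of any compared type.

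Of the other complex V subunits, Atp5a1 and Atp5b of the catalytic head had ratios from 0.986 to 1.22. The beta subunit Atp5b, the member of this complex with the most UMIs, stood at 1341 CPM in CKO and 1360 CPM in WT progenitors (0.986), at 1053 and 996 CPM in erythroid cells (1.06), at 1379 and 1127 CPM in endothelium (1.22) and at 1115 and 1112 CPM in stroma (1.00). The alpha subunit Atp5a1 had ratios of 1.06, 1.15, 1.14 and 1.04. The stalk and membrane subunits Atp5j (0.867, 0.771, 0.794 and 0.801) and Atp5k (0.749, 0.746, 0.877 and 0.842) were below 1 in all 4 types. Of the other head subunits, Atp5c1 had ratios of 0.917, 1.02, 1.11 and 0.978 and Atp5d of 0.943, 0.944, 1.00 and 0.969.

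Complex IV has subunits with tissue-restricted isoforms, and 2 of them had the highest ratios of this complex in stroma. Cox4i2, the isoform of the regulatory subunit 4 known for hypoxic tissue and lung, stood at 42.2 CPM (288 UMIs) in CKO stroma against 11.5 CPM (67 UMIs) in WT stroma, a ratio of 3.67 (2.80 to 4.86). It made up 3.92% of the UMIs of the Cox4i1 and Cox4i2 pair in CKO stroma and 1.05% in WT stroma. Ndufa4l2, a hypoxia-inducible relative of Ndufa4, stood at 62.3 CPM (425 UMIs) in CKO against 17.9 CPM (104 UMIs) in WT stroma, a ratio of 3.49 (2.81 to 4.36). Its share of the pair with Ndufa4 was 7.19% in CKO and 1.68% in WT stroma. The common isoforms did not stand higher, with Cox4i1 at a ratio of 0.956 and Ndufa4 at 0.770 in stroma.

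**Figure D4:**
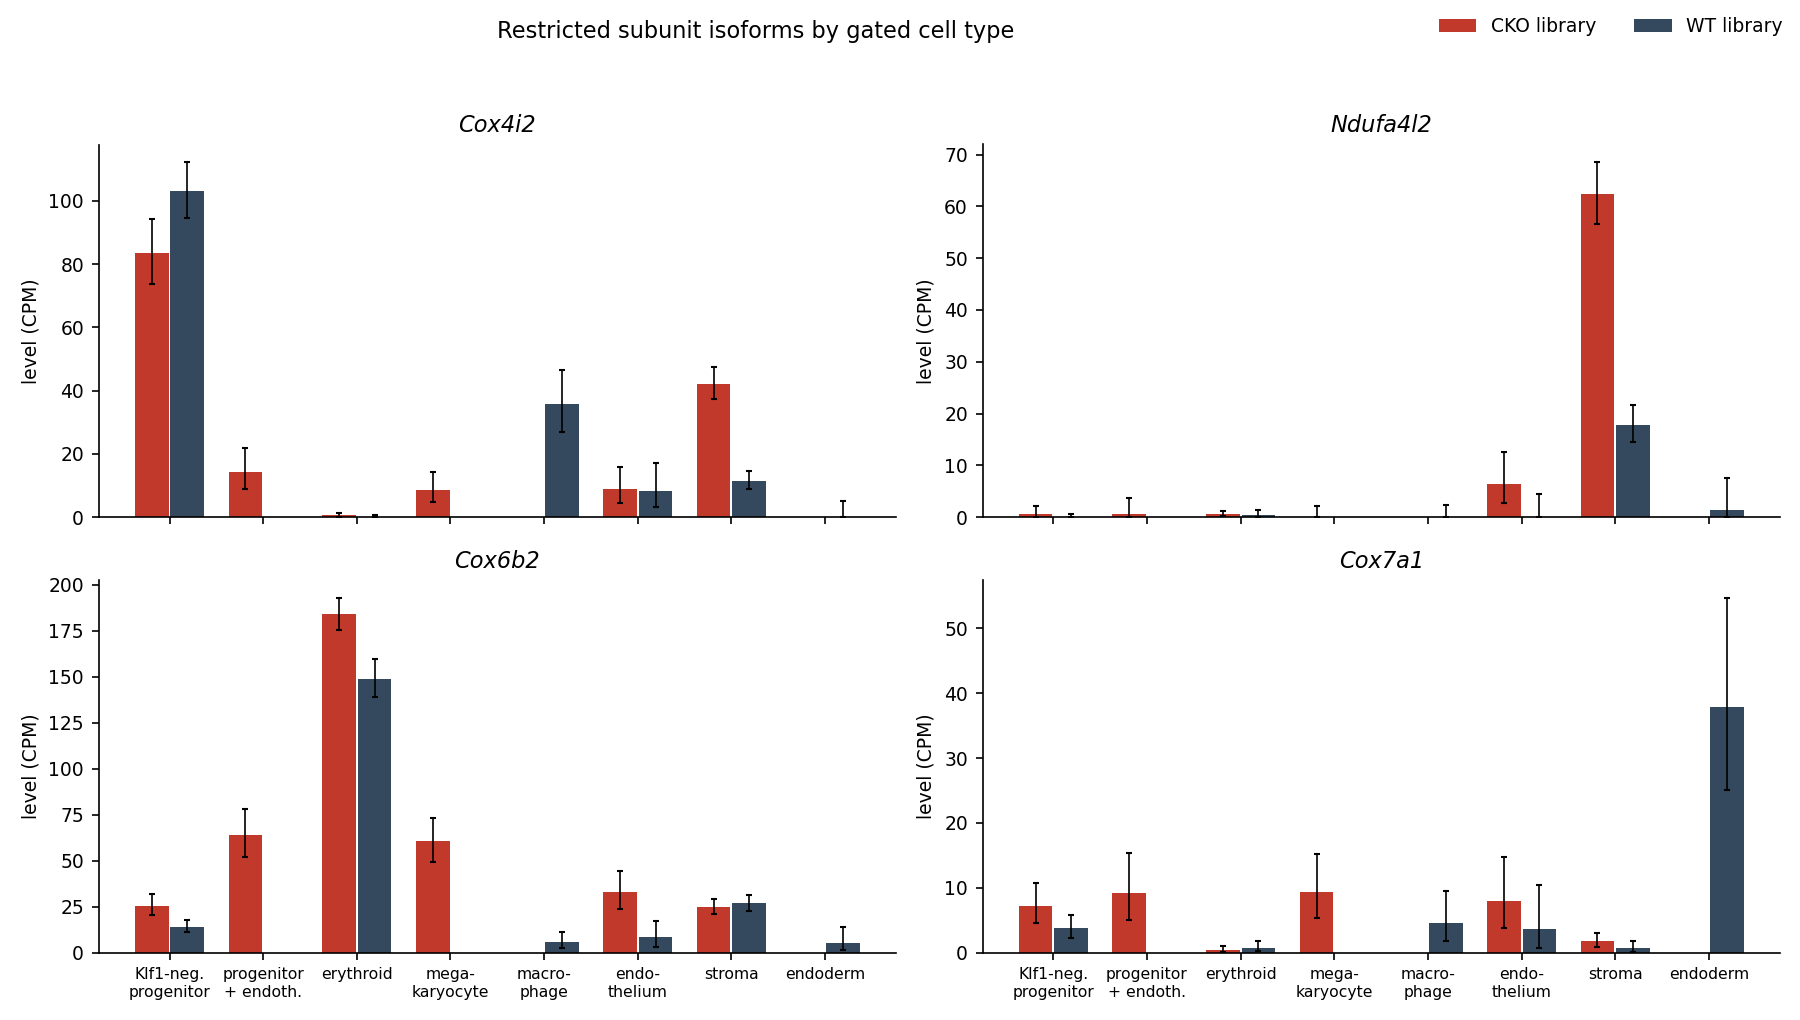
Level in CPM of the restricted isoforms Cox4i2, Ndufa4l2, Cox6b2 and Cox7a1 by gated type, CKO bars left of WT bars, with exact Poisson 95% intervals that cover counting error only; types with fewer than 20 cells in a library have no bar there. Cox4i2 is highest in progenitors, Ndufa4l2 in CKO stroma, Cox6b2 in erythroid cells and Cox7a1 in WT endoderm.

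The stromal excess was not shared by all sets of stromal cells. In stromal cells with Y-linked transcripts and no Xist (129 CKO, 121 WT), Ndufa4l2 stood at 113 CPM in CKO against 22.3 CPM in WT, and Cox4i2 at 73.4 against 14.4 CPM. In stromal cells with Xist alone (105 CKO, 104 WT), Ndufa4l2 stood at 4.11 CPM in CKO against 15.4 CPM in WT, and Cox4i2 at 8.57 against 9.85 CPM. The Ndufa4l2 values there rest on 12 UMIs in 7 CKO cells and 39 UMIs in 10 WT cells. Those of Cox4i2 rest on 25 UMIs in 19 CKO cells and 25 UMIs in 8 WT cells. In the 47 CKO and 23 WT cells with both or neither kind of transcript, Ndufa4l2 had 81 UMIs (83.2 CPM) in CKO and 0 in WT, and Cox4i2 48 UMIs (49.3 CPM) in CKO and 0 in WT, where 0 allows up to 3 counts. Both genes thus stood higher in CKO in the first and the last set of cells, while in Xist-only cells Ndufa4l2 stood lower. A few cells carried much of the count, with 9 of 281 CKO stromal cells holding 213 of 425 Ndufa4l2 UMIs and 4 of 248 WT cells holding 59 of 104. For Cox4i2, 19 CKO cells held 147 of 288 UMIs and 3 WT cells held 36 of 67. The hypoxia list moved with them, at 1853 CPM in CKO against 1004 CPM in WT in Y-only stroma, at 764 against 795 CPM in Xist-only stroma and at 1550 against 786 CPM in the remaining cells. The glycolysis list stood at 13440 against 7287 CPM in Y-only stroma, at 8603 against 7287 CPM in Xist-only stroma and at 11320 against 5854 CPM in the remaining cells. The part of these lists, and of the embryos behind the 2 sexes, in the isoform levels was not tested. The sum of all members did not follow this split, at 27992 against 30051 CPM in Y-only and 28060 against 30589 CPM in Xist-only cells.

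**Figure D5:**
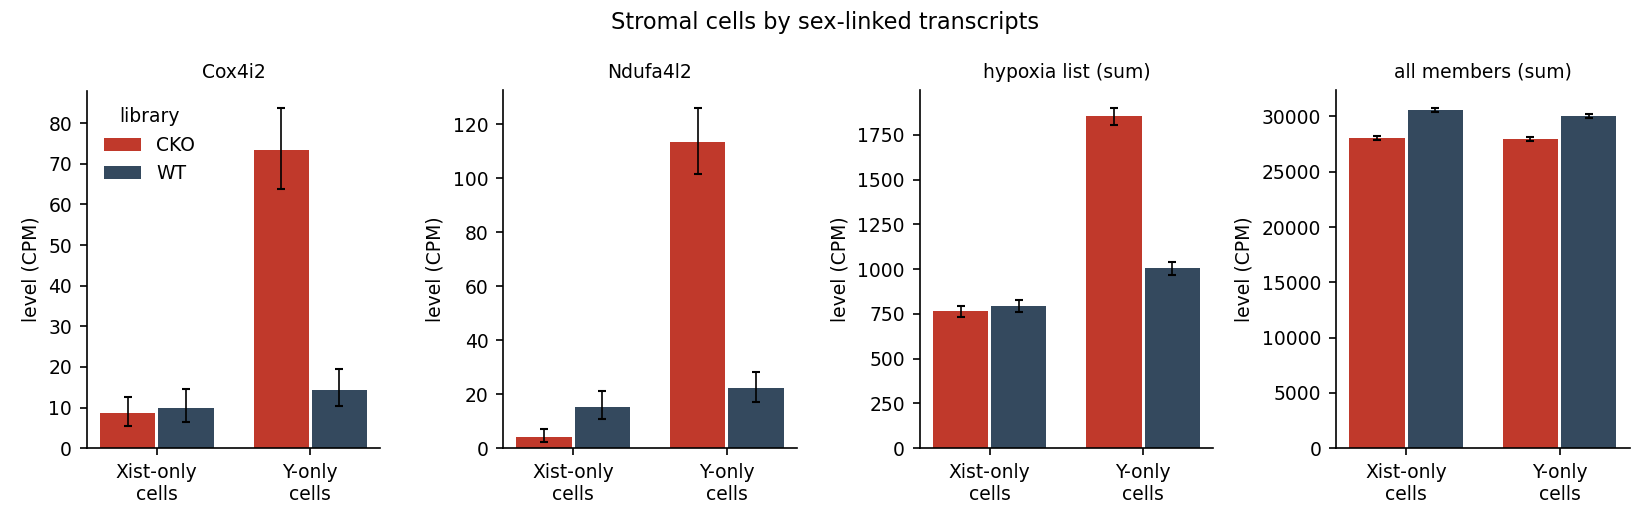
Levels in CPM of Cox4i2, Ndufa4l2, the summed hypoxia list and all 84 members in stromal cells with Xist only and with Y-linked transcripts only, CKO bars left of WT bars, with exact Poisson 95% intervals that cover counting error only; cells with both or neither are not drawn. The CKO bar stands well above WT in Y-only cells for the first 3 panels and not in Xist-only cells, while the members' sum is lower in CKO in both.

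In progenitors, where Cox4i2 had its highest level among the compared types, it stood at 83.4 CPM (267 UMIs) in CKO and 103 CPM (541 UMIs) in WT, and its share of the pair was 7.61% and 8.74%. Within the CKO progenitors it stood at 22.0 CPM in the 31 cells without a Smarcc1 UMI and at 113 CPM in the 44 cells with one. It also stood at 22.8 CPM in 23 Xist-only CKO progenitors, against 106 CPM in WT, and at 119 CPM in 40 Y-only ones, against 102 CPM in WT. Of the CKO count, 134 of 267 UMIs lay in 6 of 75 cells. These splits overlap, and which of them the level follows was not tested. Ndufa4l2 had at most 5 UMIs in either library's progenitors or erythroid cells, and 8 UMIs in CKO and 0 in WT endothelium, where 0 allows up to 3 counts. In erythroid cells Cox4i2 was near the limit of detection, with 6 UMIs in CKO cells and 0 in WT cells, and in endothelium it stood at 8.81 CPM in CKO and 8.39 CPM in WT.

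Cox6b2 set erythroid cells apart from the other types. It stood at 184 CPM in CKO and 149 CPM in WT erythroid cells, a ratio of 1.24 (1.14 to 1.35), and made up 26.5% of the UMIs of the Cox6b1 and Cox6b2 pair in CKO and 20.5% in WT. Progenitors had 25.6 CPM in CKO and 14.1 CPM in WT (1.82), endothelium 32.9 CPM (41 UMIs) in CKO and 8.39 CPM (7 UMIs) in WT (3.92, 1.74 to 10.3), and stroma 24.9 and 26.8 CPM (0.930). WT progenitors with Klf1, an erythroid transcription factor, had 63.2 CPM in 12 cells. Globin UMIs in cells outside the erythroid gate were also more frequent in the CKO library, at 0.253% against 0.0476% of the UMIs in endothelium and 0.244% against 0.0357% in progenitors. Their part in the Cox6b2 levels of those gates was not tested. Cox7a1, the heart and muscle isoform, had 28 UMIs in WT endoderm (37.8 CPM), and stood at 7.19 CPM in CKO and 3.81 CPM in WT progenitors, on 23 and 20 UMIs.

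The common complex IV subunits were mostly lower in CKO cells. Cox7c, the member of the complex with the most UMIs, stood at 1224 CPM in CKO and 1550 CPM in WT progenitors (0.790), and had ratios of 0.934 in erythroid cells, 0.896 in endothelium and 0.914 in stroma. Ndufa4, which joins the assembled oxidase, had ratios of 0.877, 0.759, 0.749 and 0.770. Cox5a had its lowest ratio in stroma, at 359 CPM in CKO against 515 CPM in WT (0.697). Cox6a1 stood at 1.18 in progenitors and 0.692 in erythroid cells, and Cox6c at 0.923, 0.734, 0.727 and 0.859. Cox8a (0.929, 0.925, 1.00 and 0.972) and Cox5b (0.935 in erythroid cells, 0.955 in endothelium and 1.04 in stroma) stayed nearer to WT.

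Within complex I, the core subunits named here, which belong to the arm that takes electrons from NADH, did not move together. Ndufs1 had ratios of 0.840 in progenitors, 1.09 in erythroid cells, 1.31 in endothelium and 0.692 in stroma. Ndufs3 (chromosome 2, 90894634 to 90904827, minus strand) stood at 384 CPM in CKO against 256 CPM in WT erythroid cells, a ratio of 1.498 (1.41 to 1.59) and of 1.41 without globins. It stood lower in CKO in the other types, at 154 against 173 CPM in progenitors, 137 against 182 CPM in endothelium and 156 against 166 CPM in stroma, where the interval of the ratio (0.860 to 1.03) included 1. Ndufs7 (0.864, 0.870, 1.05 and 0.845), Ndufs8 (0.865, 0.910, 0.801 and 0.929), Ndufv1 (0.896, 0.989, 0.903 and 0.879) and Ndufv2 (1.01, 1.08, 0.920 and 0.923) lay between 0.801 and 1.08.

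Among the accessory subunits of complex I, Ndufa12 was lower in CKO cells of all 4 types by a similar amount. It stood at 336 CPM in CKO against 450 CPM in WT progenitors (0.746), 272 against 358 CPM in erythroid cells (0.758), 288 against 386 CPM in endothelium (0.748) and 266 against 396 CPM in stroma (0.672). Ndufa5 had ratios of 0.692, 0.838, 0.688 and 0.836, and Ndufb8 of 0.704, 0.803, 0.874 and 0.890. Ndufa2, the subunit with the most UMIs of the complex, had 0.932, 0.903, 0.847 and 0.888. Ndufa1, an X-linked subunit, stood above 1 in progenitors (1.12) and below it in erythroid cells (0.712), endothelium (0.646) and stroma (0.782). Ndufb2 was at least 1.5-fold lower in CKO erythroid cells, at 133 CPM in CKO against 204 CPM in WT (0.655). Ndufa3 (1.23 in progenitors and 1.11 in stroma) and Ndufv3 (1.17 in stroma) were among the few above 1.

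The assembly factors, which help build complex I and are not part of it, were the lowest group in the 3 types outside the erythroid gate. Ndufaf4 (chromosome 4, 24898083 to 24905001, plus strand) stood at 92.5 CPM (296 UMIs) in CKO against 122.5 CPM (643 UMIs) in WT progenitors, a ratio of 0.755. It stood at 64.0 CPM (595 UMIs) against 87.7 CPM (481 UMIs) in erythroid cells (0.730), 40.1 CPM (50 UMIs) against 65.9 CPM (55 UMIs) in endothelium (0.608) and 31.2 CPM (213 UMIs) against 50.3 CPM (293 UMIs) in stroma (0.620). Ndufaf4 was lower in CKO cells of all 4 types, and its level in both libraries was lower in stroma than in progenitors. Ndufaf1 had ratios of 0.882, 0.830, 0.446 and 0.551, on 12 and 18 UMIs in endothelium. Ndufaf6 had 0.660 in progenitors, 1.19 in erythroid cells, 0.545 in endothelium and 0.943 in stroma. Ndufaf5 ran the other way, at 1.34, 1.69, 2.01 and 1.21, on 21 and 7 UMIs in endothelium. Ndufaf2 (0.763, 0.875, 1.02 and 0.741), Ndufaf3 (0.944, 0.931, 0.648 and 0.753) and Ndufaf7 (0.878, 1.07, 0.926 and 0.985) completed the group.

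In complex III, Uqcrb, the member with the most UMIs, had ratios of 1.03 in progenitors, 1.08 in erythroid cells, 0.828 in endothelium and 0.951 in stroma. Uqcrq stood at 354 CPM in CKO against 537 CPM in WT erythroid cells (0.659), and at 0.838, 0.864 and 0.837 in progenitors, endothelium and stroma. The hinge protein Uqcrh had 1.04, 0.935, 1.01 and 1.10. The catalytic Rieske protein Uqcrfs1 had 0.832, 0.949, 0.983 and 0.892. The core proteins Uqcrc1 (0.959, 0.996, 0.838 and 0.877) and Uqcrc2 (0.922, 0.991, 0.952 and 0.890) were below 1 in the other types. In erythroid cells they were close to 1 only with globin UMIs counted. Leaving these out lowers both, as it lowered the erythroid ratio of complex III from 0.862 to 0.81.

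Cox7a2l, known for joining complexes III and IV into supercomplexes, was higher in CKO cells of all 4 types. Whether it has that role in these B6 mice was not measured. It stood at 368 against 291 CPM in progenitors (1.27, 1.17 to 1.37), 227 against 176 CPM in erythroid cells (1.29, 1.196 to 1.40), 489 against 391 CPM in endothelium (1.25, 1.09 to 1.44) and 335.5 against 294 CPM in stroma (1.14, 1.07 to 1.21). In endothelial cells with under 2 UMIs of Clec1b and Coro1a together, genes of platelets and leukocytes (16 CKO, 23 WT cells), the ratio was 0.880. Endothelium also held more of it than progenitors within each library, at 1.33 in CKO and 1.34 in WT. Atp5s, a coupling factor outside the synthase, had 17.5 CPM (163 UMIs) in CKO against 7.11 CPM (39 UMIs) in WT erythroid cells (2.46, 1.73 to 3.59) and a ratio of 1.55 in stroma. Atp5sl had ratios of 0.923, 1.31, 1.34 and 0.899 on low counts, with 18 and 9 UMIs in endothelium.

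The genes around the members were read from lists, which were chosen with earlier results of these data known. Beside the background shares given above for 1.5-fold, 0 of 4 complex II genes and 0 of 2 genes for cytochrome c and c1 passed that fold in any type. Their summed ratios were 0.905, 1.05, 0.967 and 0.980 for complex II, and 0.837, 0.891, 1.03 and 0.788 for Cycs and Cyc1. Of 17 TCA cycle genes, 1 was higher in CKO endothelium and 1 lower in CKO stroma, and the sum had ratios of 0.915, 1.05, 0.993 and 0.835. With globin UMIs left out, the erythroid sum of complex II was 526.1 CPM in CKO against 535 CPM in WT. That of the TCA cycle was 1692.5 against 1723.7 CPM, so the erythroid direction of both lists depends on that choice. Mdh2 and Idh2, which make NADH and NADPH in the matrix, stood at 0.802 and 0.650 in stroma. Of the assembly factors outside the name rule, 1, 3, 4 and 1 were higher and 3, 1, 5 and 1 lower, of 30, 30, 26 and 30 measured, with sums at 0.890, 0.963, 0.978 and 0.934. The copper chaperone Cox17 had ratios of 0.870, 0.763, 0.755 and 0.866.

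The mitochondrially encoded subunits were lower in CKO, as the nuclear ones were, only in endothelium. Their sum stood at 21966 CPM in CKO against 19083 CPM in WT progenitors (1.15), 22960 against 18583 CPM in erythroid cells (1.24), 21574 against 29378 CPM in endothelium (0.734) and 19366 against 19285 CPM in stroma (1.00). Of 13 genes (12 in endothelium), 1, 4, 0 and 1 were at least 1.5-fold higher and 0, 0, 2 and 0 lower in these types. The 4 erythroid genes and the 2 endothelial ones are near the background, where 23.8% of all genes were higher in CKO erythroid cells and 19.7% lower in CKO endothelium. There were 0.716 mitochondrially encoded UMIs for each member UMI in CKO progenitors and 0.576 in WT, 1.02 and 0.757 in erythroid cells, 0.723 and 0.906 in endothelium, and 0.688 and 0.635 in stroma. The endothelial values moved with depth, at a median of 23455 UMIs per cell in CKO and 13184.5 in WT, whose part was not tested.

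Glycolysis genes stood the other way. Their sum was 9162 CPM in CKO against 7763 CPM in WT progenitors (1.18), 4561 against 3049 CPM in erythroid cells (1.496), 8232 against 5524 CPM in endothelium (1.49) and 11068 against 7198 CPM in stroma (1.54). At least 1.5-fold higher were 2 of 16, 10 of 16, 7 of 14 and 8 of 16 genes, where 13.9%, 23.8%, 13.1% and 13.7% of all genes were, and 1 erythroid gene was lower. The progenitor count is near that background. Gapdh, the enzyme that makes glycolytic NADH, had ratios of 1.36, 1.53, 1.96 and 1.57, and Ldha, which turns pyruvate to lactate, 0.975, 1.02, 1.35 and 1.42. Of the hypoxia list, 4 of 11, 7 of 11, 5 of 10 and 10 of 12 genes were higher, where 13.9%, 23.8%, 13.1% and 13.7% of all genes were. In erythroid cells 1 gene of the list was lower, where 7.23% of all genes were. The sums of the list had ratios of 0.949, 1.37, 1.10 and 1.495, and in Xist-only stroma it stood at 764 CPM in CKO against 795 CPM in WT. Its prolyl hydroxylase P4ha2, a collagen enzyme, stood at 381 against 238 CPM in stroma (1.60). Of the regulators of mitochondrial biogenesis, 1, 2, 1 and 0 were higher and 0, 2, 1 and 1 lower, of 12, 11, 10 and 11 measured, where 10.6%, 7.23%, 19.7% and 11.7% of all genes were lower. These counts of 0 to 2 genes are too few to set apart from the background. Yy1, a zinc finger factor, had ratios of 0.698, 0.571, 0.698 and 0.592, Tfam, which packages mitochondrial DNA, 0.869, 1.34, 0.762 and 0.880, and Nrf1, the factor of the motif shown above, 1.31, 1.13, 0.841 and 0.803.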

How the data were processed

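Live Ter119-negative yolk sac cells were measured with 10x Genomics 5′ libraries, 1 Baf155 CKO and 1 WT. The authors deposited whole-number UMI counts per gene and barcode; per the submitters' processing notes, Cell Ranger, Seurat and GRCm38 were used, with versions not given in the sources used here. A barcode was kept if it had 500 or more genes, no more than 10% of its UMIs from mitochondria and no doublet call by Scrublet (expected rate 1%; 6 CKO and 3 WT called). Cells were gated on at least 3 markers with 2 UMIs each, or on 5% embryonic globin UMIs for erythroid cells; 35 CKO and 3 WT cells passed several gates and 39 and 84 none, and these were left out. A Klf1-negative progenitor had under 2 Klf1 UMIs. Markers kept out of the gates were summed as a check: stromal markers 7421.5 CPM in CKO and 7821.0 in WT stroma, endothelial markers 2429.5 and 3768.1 in endothelium, erythroid markers 3029.2 and 2457.6 in erythroid cells, megakaryocyte markers 8088.6 and 943.7 in megakaryocytes, macrophage markers 344.4 and 1003.2 in macrophages, and endoderm markers 56157.1 in WT endoderm. Progenitor markers stood at 263.4 and 203.7 in progenitors, lower than in megakaryocytes (389.4 and 394.9) and in cells with progenitor and endothelial markers (350.5 and 359.5), and progenitors also held megakaryocyte markers at 478.7 and 258.8.

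UMIs were summed over the cells of a type and library and scaled to a total of 1000000 (CPM). Types with at least 20 cells per library and genes with at least 20 UMIs over both were compared; called means at least 1.5-fold. Intervals are exact 95% Poisson intervals for levels and conditional binomial ones for ratios; UMIs of 1 cell are not independent, so they are narrower than the spread between embryos. The intervals were checked on simulated independent Poisson counts with known ratios, which is the model they assume. That check cannot show how they hold for UMIs grouped by cell or embryo. The genes named are those at the ends of each comparison, of most UMIs and of widest range over types, isoform pairs, and the most abundant of each list; others are examples chosen after their values were seen. Alternatives varied the denominator, per-cell means, mitochondrial limit, marker and gene UMI limits, fold, doublets, Smarcc1-free CKO cells and sex. Members and lists were chosen with earlier results of these data known. Gene positions come from GENCODE release 21 for the mouse (84 of 84 IDs found). Near-identical copies were found with blastn 2.17.0 for 16 of 84 members, in the files for 3. Tools were scanpy 1.11.5, anndata 0.12.19, scipy 1.17.1, numpy 2.4.6, pandas 2.3.3 and matplotlib 3.10.9 under Python 3.11.15.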

Additional observations from a re-analysis of the deposited data

Results flagged for a closer look

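The 4 results below differed in direction between cell types or between sets of cells, and none of these differences was tested, since there was 1 library per genotype. The log2 ratio of Cox4i2, CKO over WT, was higher in stroma than in Klf1-negative progenitors by 2.18, with ratios of 3.67 (2.80 to 4.86) and 0.809 (0.696 to 0.939). That of Ndufa4l2 was higher in Y-only than in Xist-only stromal cells by 4.25, with ratios of 5.09 (3.89 to 6.74) and 0.268 (0.128 to 0.522). That of the core complex I subunit Ndufs3 was higher in erythroid cells than in endothelium by 0.99, with ratios of 1.498 (1.41 to 1.59) and 0.752 (0.601 to 0.942). That of the summed mitochondrially encoded subunits was higher in erythroid cells than in endothelium by 0.75, with ratios of 1.24 (1.23 to 1.25) and 0.734 (0.722 to 0.747). The Ndufa4l2 ratio in Xist-only stroma rests on 12 UMIs in 7 CKO cells and 39 UMIs in 10 WT cells. Its interval treats UMIs of the same cell as independent. For Cox4i2 the direction was the same in both types within each sex. In Y-only cells it stood at 119 CPM in CKO against 102 CPM in WT progenitors, and at 73.4 against 14.4 CPM in stroma. In Xist-only cells it stood at 22.8 against 106 CPM in progenitors and at 8.57 against 9.85 CPM in stroma. The Xist-only stromal values rest on 25 UMIs in CKO and 25 in WT. Of the Cox4i2 UMIs of CKO progenitors, 134 of 267 lay in 6 of 75 cells.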

How the results depend on the processing

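No paired analysis was possible because there was 1 library per genotype, and leaving out a replicate was not possible for the same reason. The summed level of the members, CKO over WT, was below 1 under 46 of 46 alternatives run (0.860 to 0.956). It moved beyond its counting interval in progenitors with the mean of per-cell CPM (0.915), markers at 1 UMI (0.891), Xist-only cells (0.911) and Y-only cells (0.935); in erythroid cells without globin UMIs (0.860), with per-cell means (0.903), without CKO cells that held a Smarcc1 UMI (0.909) and in Y-only cells (0.888); in stroma with per-cell means (0.917), without such CKO cells (0.936) and in Xist-only cells (0.917); and in endothelium with markers at 3 UMIs (0.935). In endothelial cells with under 2 UMIs of Clec1b and Coro1a together, an alternative chosen after seeing the data, it was 0.956 (16 CKO and 23 WT cells). Over progenitors, markers at 1 UMI gave in CKO 1.00 for cells with both progenitor and endothelial markers, 0.742 for erythroid cells, 1.00 for megakaryocytes and 0.930 for stroma, and in WT 0.725 for erythroid cells, 0.931 for macrophages, 0.954 for endothelium, 0.894 for stroma and 1.28 for endoderm. Per-cell means gave 0.929 for CKO stroma, 0.928 for WT stroma and 1.33 for WT endoderm, and leaving out globins gave 1.00 for CKO and 1.08 for WT erythroid cells. At a fold of 2, 2 members were higher and 0 lower in CKO progenitors. At that fold 0 were lower in erythroid cells, 1 in endothelium and 0 in stroma. With 100 UMIs required, 2 were higher and 2 lower in endothelium. The share of all genes per type was not computed at these settings, so these counts have no background beside them. In Xist-only stroma the ratios of Cox4i2 (0.870, 0.479 to 1.58) and Ndufa4l2 (0.268, on 12 CKO and 39 WT UMIs) turned below 1. The cause was not tested. Endothelium could not be compared at markers with 1 UMI, in Xist-only or in Y-only cells, where a library had fewer than 20 cells. The endothelial assembly factors and isoforms rest on few counts, such as 12 and 18 UMIs of Ndufaf1.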
